A study of Mus musculus with 2 samples.

Results

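The wide regions described here are 1744 autosomal stretches of H3K27me3 chromatin, each 20 kb or longer, out of 45974 regions in a series-wide broad list on mouse build mm9. H3K27me3 is histone H3 trimethylated at lysine 27. It was immunoprecipitated from E14TG2a.4, a male embryonic stem cell line (mouse strain 129/Ola, age in the labels 3.5 days), and the bound DNA was sequenced. The series has 1 group, untreated as far as the labels say, with 2 biological replicates and no contrasting condition. Both replicates are the same line, so they say nothing about variation between animals. The wide regions were chosen by length alone, as the difference between the deposited end and start of a region. Length, the authors' signal value and the deposited p-value of a region all come from the same call, so they are described below and not tested.

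H3K27me3 is written by Polycomb repressive complex 2, whose catalytic subunit is EZH2 or EZH1 and whose EED subunit binds the finished mark. That binding lets the complex extend the mark to neighbouring nucleosomes, so that a domain can grow wider than a single promoter. In embryonic stem cells the mark is best known over CpG-rich promoters of silent developmental regulators, and its broadest domains are known from the HOX clusters, whose genes specify position along the body axis. A broad list of this kind joins neighbouring windows of signal into long stretches, whereas a narrow list marks individual summits.

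All starts and ends in the list, which counts from 0, were multiples of 200 bp; starts printed here count from 1. In the list no 2 regions lay closer than 800 bp. The list covered 297.3 Mb in all, with 45490 regions on the autosomes, 483 on the X chromosome and 1 on the Y chromosome. The sources used here do not say which libraries entered it or how many reads lay behind a region, so the depth is unknown and no spread between replicates exists for a single mm9 region. Genes inside the wide regions were not analysed here, because the annotation used is on GRCm38 and no position was carried from one build to the other. For the same reason no sequence of a wide region is shown.

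Wide regions were few but held a large part of the marked sequence. They made up 3.83% of the autosomal regions (exact 95% interval 3.66 to 4.01) and 18.5% of the autosomal bases in the list, 54.6 Mb of 294.6 Mb. Such intervals cover counting error only, and neighbouring regions are not independent. The wide regions had a median length of 26.4 kb, and the shorter autosomal regions had one of 4.4 kb. Most wide regions were close to the limit. The lowest 25% were no longer than 22.4 kb and 75% were no longer than 34.0 kb, while 620 reached 30 kb, 153 reached 50 kb, 38 reached 75 kb and 13 reached 100 kb.

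The limit at 20 kb did not fall in a gap of the length distribution. Exactly 20.0 kb long were 41 regions, with a median signal of 3.58, and 32 regions measured 20.2 kb. Just outside, 53 regions measured 19.8 kb, with a median signal of 3.20, and 43 measured 19.6 kb. The first 5 members at the limit had signals of 3.14, 6.56, 2.32, 4.09 and 3.59. The first 5 regions outside it had signals of 3.52, 2.72, 2.20, 3.25 and 2.38. Regions just inside and just outside the limit therefore overlapped in signal.

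The longest wide region ran for 264.0 kb on chromosome 15, from 102723601 to 102987600, with a signal value of 7.64. The next was 207.2 kb on chromosome 7, from 150484001 to 150691200, with a signal of 5.79. After it came 145.0 kb on chromosome 11, from 96103201 to 96248200, which also had the highest signal of all wide regions at 10.6. A stretch of 137.2 kb on chromosome 6, from 52095601 to 52232800, followed with a signal of 10.4. The longest region was thus not the strongest, although the signals of both ranked in the top percent of autosomal regions.

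The other 9 regions of 100 kb or longer were spread over 5 chromosomes. Chromosome 7 held 2 of them, 126.2 kb from 86638801 to 86765000 with a signal of 7.39 and 118.0 kb from 35890801 to 36008800 with a signal of 4.48. Chromosome 2 held 3, of 123.0 kb from 164965001 to 165088000, of 120 kb from 74491801 to 74611800 and of 102.6 kb from 33408801 to 33511400. Their signals were far apart, at 4.80 for the first, 10.1 for the second and 9.39 for the last. Chromosome 5 held regions of 108.8 kb (from 120212401 to 120321200, signal 5.53) and 105.2 kb (from 33730201 to 33835400, signal 8.02). The regions of 105.2 and 102.6 kb were picked after their values were seen. Chromosome 17 held 1 of 109.2 kb, from 85988201 to 86097400, with a signal of 6.92. Chromosome 1 held 1 of exactly 100 kb, from 74913401 to 75013400, with a signal of 5.86. In all 13 the deposited p-value was listed as 0, which means a value too small for the file to hold.

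The 4 HOX clusters give a point of orientation that needs no coordinates. In the GRCm38 annotation the 11 Hoxa genes lie on chromosome 6, the 10 Hoxb genes on chromosome 11, the 9 Hoxc genes on chromosome 15 and the 9 Hoxd genes on chromosome 2. Each of these 4 chromosomes held at least 1 of the 10 longest wide regions. Chromosomes 5, 7 and 17, which hold none of the 4 clusters, held the rest, so long regions were not limited to HOX chromosomes. Whether those regions cover the clusters was not analysed here.

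Signal was mostly higher in wide than in shorter regions, although the range of wide regions lay within that of shorter ones. The median signal of wide regions was 3.83, with the middle part from 2.96 (25%) to 4.88 (75%) and extremes of 1.09 and 10.6. Shorter regions had a median of 2.20, with 25% and 75% points at 1.87 and 2.67 and extremes of 1.08 and 18.0. The wide median was the higher on all 19 autosomes, from 3.49 on chromosome 16 to 4.23 on chromosome 13, and the shorter medians ran from 2.06 to 2.29. A signal of at least 5 was reached by 409 wide regions (23.5%) and by 1233 shorter ones (2.82%). The deposited p-value was listed as 0 for 1480 wide regions (84.9%, exact interval 83.1 to 86.5) and for 4.98% of shorter regions (4.78 to 5.19). A longer region gathers more reads at equal strength, so the length rule and this share are not independent.

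At the top of the signal scale, 1 of the 10 strongest autosomal regions was wide, and so were 30 of the strongest 100, against 3.83% of all autosomal regions. A signal of at least 8 was reached by 2.70% of wide and 0.231% of shorter regions. More than 1 in 2 wide regions, 926 or 53.1%, ranked in the upper 10% of autosomal regions by signal. At the other end 76 wide regions (4.36%) ranked in the lower 50%.

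Signal also climbed with length among the wide regions themselves. Median signals were 3.54 for the 1124 regions from 20 kb to under 30 kb, 4.13 for the 467 from 30 kb, 4.59 for the 140 from 50 kb and 7.39 for the 13 of 100 kb or longer. Below the limit the order was not steady, with 2.56 under 2 kb, 2.08 from 2 kb, 2.20 from 5 kb and 2.74 from 10 kb. The link within the wide set was weak all the same. Across the 1744 regions the Spearman rank correlation of length and signal was 0.28 and Pearson's r was 0.29, and regions sharing a list and a chromosome are not independent points. Within single autosomes the rank correlation was positive on all 19, from 0.012 on chromosome 15, which holds the longest region, to 0.45 on chromosome 3.

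**Figure D1:**
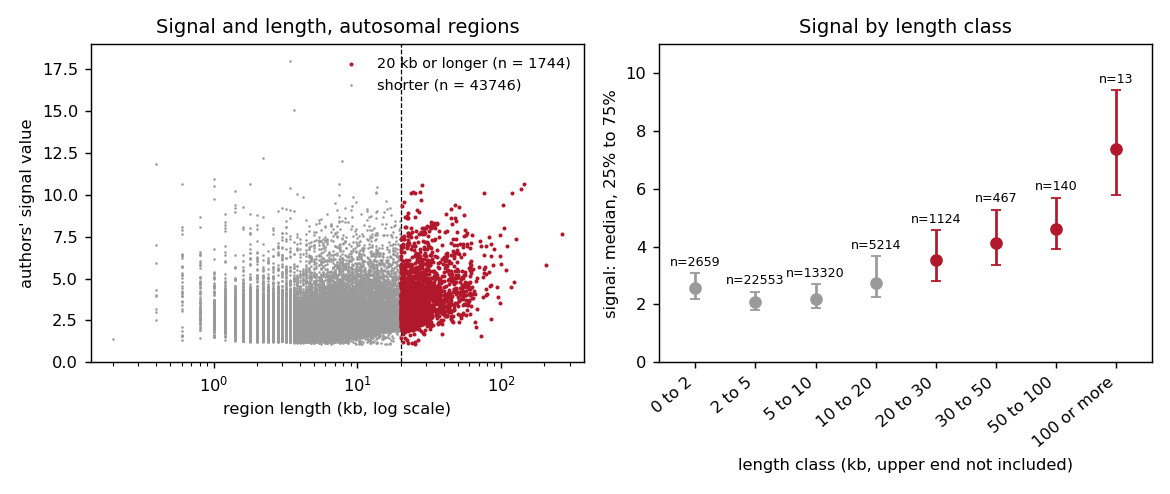
Left, the authors' signal value of every autosomal region against its length in kb on a log axis, with regions of 20 kb or longer in red, shorter ones in grey and the limit as a dashed line. Right, median signal with its 25% to 75% range in 8 length classes, which reads 3.54 at 20 to 30 kb and 7.39 at 100 kb or more.

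Strong signal was not limited to the widest members. Of the 10 wide regions with the highest signal, 6 were under 30 kb, among them 28.4 kb on chromosome 11 (85637001 to 85665400, signal 10.6), 27.2 kb on chromosome 8 (73002401 to 73029600, signal 10.2) and 24.6 kb on chromosome 6 (88135801 to 88160400, signal 10.2). Chromosome 7 gave 2 more, of 23.8 kb from 138679401 to 138703200 and of 25.4 kb from 149829401 to 149854800, both with a signal of 10.1. The sixth, 27.8 kb on chromosome 1 from 186536601 to 186564400, had a signal of 9.67. The remaining 4 were 3 of the 7 longest regions, on chromosomes 11, 6 and 2, and a region of 76.2 kb on chromosome 11 (118885201 to 118961400, signal 10.1).

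The weakest members lay in a few places. Only 9 wide regions had a signal under 1.5, against 1712 shorter ones (3.91%), and the 10 weakest were all on chromosomes 9, 10 and 14. Chromosome 14 had 5 of these 10, of which 4 lay between 4614801 and 7536800. Chromosome 10 had 2, including the weakest of all, 25.4 kb from 22053401 to 22078800 with a signal of 1.09 and a deposited p-value of 0.000101. Chromosome 9 had 3, between 46700601 and 46874400, a stretch of 173.8 kb that also held other listed regions. The next wide region after them, from 46875201 to 46914200, had a signal of 1.70. The largest of the 3 measured 72.0 kb with a signal of 1.56, and was nevertheless the longest wide region of its chromosome. These regions were singled out after their values were seen. The first 10% of the listed span of chromosome 14, a stretch of 12.2 Mb, held 15 wide regions with a median signal of 1.91 (1.17 to 5.83). The other 43 of that chromosome had a median of 3.89 (1.16 to 7.49). A p-value listed as 0 was given to 3 of those 15 and to 36 of the 43. Copy number and mappability of these stretches were not tested.

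Many wide regions lay near others of their kind. Another wide region lay within 100 kb, edge to edge, of 955 members (54.8%, exact interval 52.4 to 57.1), and the median gap to the next wide region was 81.2 kb. The share ran from 29.3% on chromosome 14 to 65.9% on chromosome 5. No share for shorter regions or for random placement is set beside it here, and some neighbours were parted only by the smallest gap of 800 bp. Linked over gaps of up to 100 kb, the members formed 1128 groups, of which 789 were single regions, 203 were pairs, 70 held 3 regions, 30 held 4 and 36 held 5 or more. Grouped members were a little longer than single ones, with a median of 27.6 kb against 25.2 kb, but had a lower median signal, at 3.68 against 3.98.

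The most populous group lay near the end of chromosome 4, from 153303401 to 154171800. It held 14 wide regions in 868.4 kb, which covered 49.8% of that stretch, with signals of 2.48 to 7.16 and a longest member of 61.8 kb. The next, on chromosome 9 from 42941201 to 43506000, held 10 wide regions covering 61.3% of 564.8 kb, with signals of 2.45 to 5.47. After these came a group of 9 on chromosome 12, from 113323801 to 113769600, which covered 54.2% of 445.8 kb with signals of 2.44 to 5.0. None of these 3 groups contained a region of 100 kb or longer, whereas a group of 7 on chromosome 5 (33423401 to 34171800) contained the one of 105.2 kb (this group was picked after its values were seen).

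The sequence around wide regions was also richly marked. Other listed regions covered a median of 47.2% of the 50 kb on each side of a wide region (25% to 75%, 29.6 to 64.5) and 28.2% on each side of a shorter one (13 to 45.2). The wide median was the higher on all 19 autosomes, ranging from 35.8% to 55.0% by chromosome against 19.8% to 33.0%. Only 16 wide regions (0.917%) had no other region within 50 kb on either side, and 5.73% of shorter ones had none. At the smallest gap in the list, 800 bp, stood 594 wide regions (34.1%, exact interval 31.8 to 36.3) and 19.6% of shorter regions (19.2 to 20.0). Many wide regions therefore ended at a short break, beyond which the next listed region began. With regions up to 1 kb apart joined first, a step added after that gap was seen, 2670 autosomal regions reached 20 kb, against 1744 as deposited, and with 3 kb the number was 3859.

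The strongest wide regions had the emptier surroundings. With the members split into 4 equal classes of 436 by signal, the median covered share of the flanks was 51.0% in the weakest class, then 52.1% and 46%, and 39.8% in the strongest. The share with another wide region within 100 kb went the same way, at 58.5%, 57.8%, 55.0% and 47.7%. Median length went the other way, at 23.8, 26.4, 27.8 and 29.8 kb, and regions of 50 kb or longer numbered 12, 20, 52 and 69. Classes made from the signal of the same list give a description only.

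**Figure D2:**
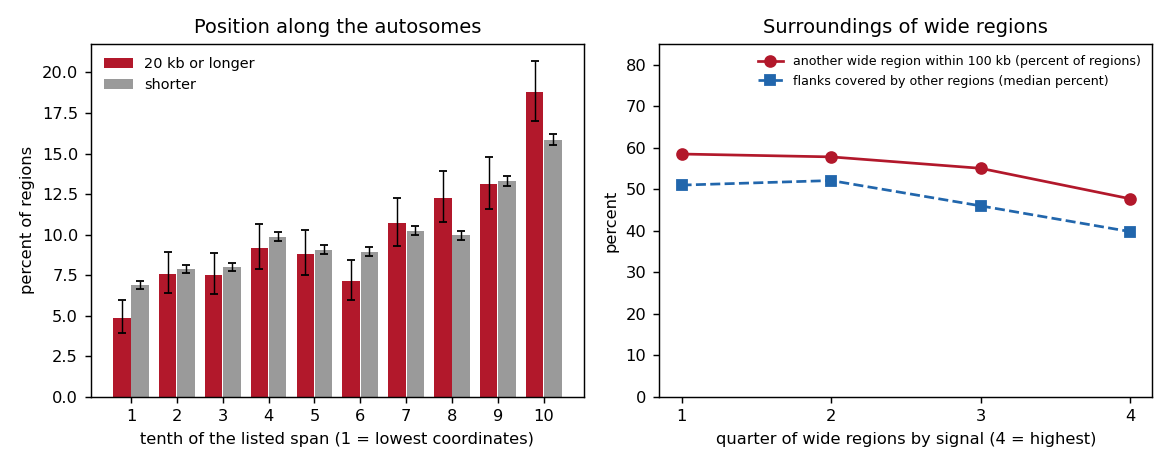
Left, percent of regions of 20 kb or longer (red) and of shorter regions (grey) in each of 10 equal bins of the listed span of an autosome, with exact 95% intervals. Right, for wide regions in 4 equal classes of signal, the percent with another wide region within 100 kb, which is 58.5 in the lowest class and 47.7 in the highest, and the median percent of their flanks that other regions cover.

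Pooled over the autosomes, wide regions lay more toward the high-coordinate end. Mouse autosomes carry the centromere at the low-coordinate end, so this is the side away from it. With the span between the first and the last listed region of each autosome cut into 10 bins, the last bin held 328 wide regions (18.8%, exact interval 17.0 to 20.7) and 15.9% of the shorter ones (15.5 to 16.2). The first bin held 85 wide regions (4.87%, 3.91 to 5.99) and 6.91% of the shorter ones (6.67 to 7.15). Shorter regions thus leaned the same way. The intervals of wide and shorter did not overlap at either end, but they treat neighbouring regions as independent, which they are not. Expressed per region, 2.74% of all listed regions in the first bin were wide (2.19 to 3.37), against 4.52% in the last (4.05 to 5.02). The rise between them was not steady, with 3.07% in bin 6, 4.68% in bin 8, the highest, and 3.79% in bin 9.

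That lean was not shared by all chromosomes. The last bin held more wide regions than the first on 14 autosomes and fewer on 4. It was the fullest of the bins on only 4 autosomes, chromosomes 2, 7, 8 and 12. Chromosome 7 had 51 of its 139 wide regions in the last bin and 2 in the first, and chromosome 12 had 28 of 82 there and 3 in the first. Chromosome 2 had 47 in the last bin and 7 in the first. By contrast, chromosome 14 had 3 in the last bin and 15 in the first, where the weak regions described above lie. Chromosome 17 had 2 and 6, and chromosome 6 had 2 and 1 with its fullest bin, of 21 regions, in mid-chromosome.

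The number of wide regions differed between autosomes, although the intervals given here treat neighbouring regions as independent. Chromosome 2 held 173 and chromosome 11 held 172, and chromosome 16 held the fewest at 41. Per Mb of listed span, chromosome 11 led with 1.45 wide regions (exact Poisson 95% interval 1.24 to 1.68), and its interval overlapped only that of chromosome 19, at 1.08 (0.832 to 1.39). Chromosomes 9, 2, 7, 4 and 5 followed with 0.996, 0.968, 0.930, 0.924 and 0.883 and could not be told apart by their intervals. The lowest density was on chromosome 3, at 0.301 (0.221 to 0.401), next to 0.432 on chromosome 16 (0.310 to 0.586) and 0.442 on chromosome 10 (0.334 to 0.573), and the intervals of these, and of chromosomes 13 and 14, overlapped with its own. The highest density was 4.81 times the lowest (exact interval 3.47 to 6.79). These 2 autosomes are the extremes of 19, and the interval allows neither for that choice nor for clustering of regions. Wide regions took up 4.57% of the listed span of chromosome 11 and 0.914% of that of chromosome 3.

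This order was partly shared with that of shorter listed regions. Over the 19 autosomes the density of wide regions went with that of shorter regions, with a rank correlation of 0.82 and an r of 0.88. Yet the share of regions that were wide also varied, from 2.28% on chromosome 3 (exact interval 1.68 to 3.03) to 5.08% on chromosome 11 (4.36 to 5.87). Widths varied little by comparison, with chromosome medians of 24.7 kb on chromosome 14 to 28.6 kb on chromosome 16. Regions of 50 kb or longer were most numerous on chromosomes 11 (19), 5 (15) and 2 (14), and fewest on chromosomes 3 and 19 (3 each).

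**Figure D3:**
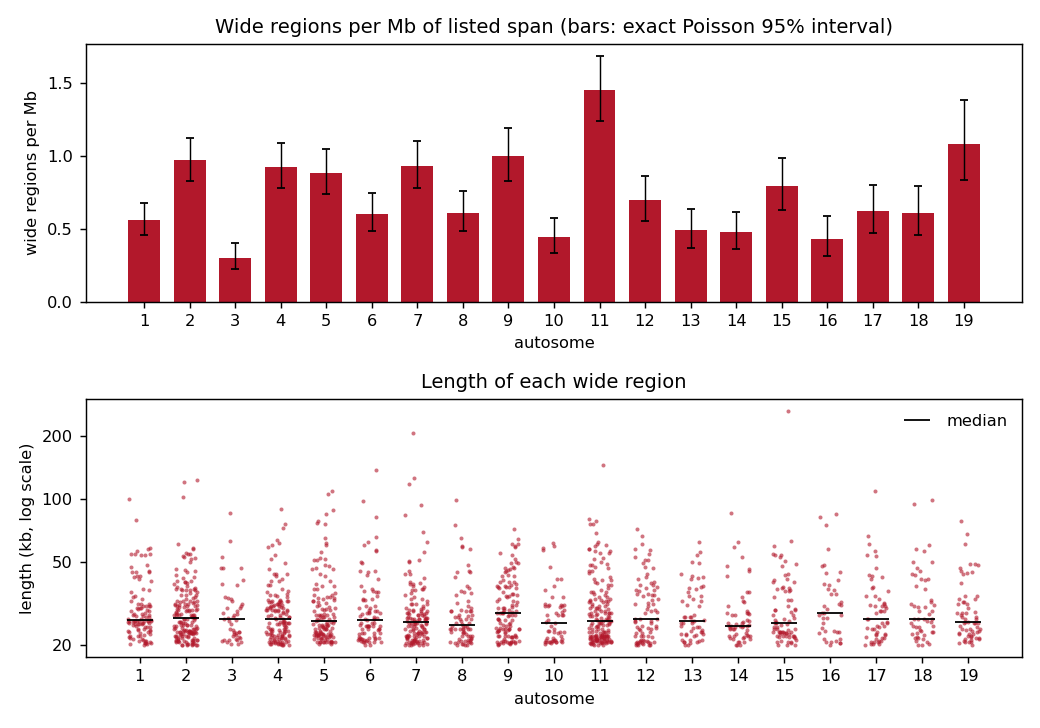
Top, wide regions per Mb between the first and the last listed region of each autosome, with exact Poisson 95% intervals, from 0.301 on chromosome 3 to 1.45 on chromosome 11. Bottom, the length of each wide region in kb on a log axis by autosome, with a black line at the median of each.

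The longest member of an autosome was not always a strong one. Among autosomes with no region over 100 kb, chromosome 18 had 98.4 kb (37826601 to 37925000, signal 6.37), chromosome 8 had 98.6 kb (87225001 to 87323600, signal 7.57) and chromosome 4 had 89.6 kb (115567801 to 115657400, signal 6.75). Chromosome 3, lowest in wide regions per Mb, still had one of 85.8 kb from 87546801 to 87632600 with a signal of 6.32. Chromosome 16 had one of almost the same length, 85.2 kb from 35478001 to 35563200, with a signal of 2.56. The longest regions of chromosomes 14 and 19 were also moderate in signal, at 4.59 for 85.6 kb (70849001 to 70934600) and 4.40 for 78.4 kb (7192801 to 7271200). Chromosomes 12 and 13 had 71.8 kb (112633401 to 112705200, signal 7.24) and 62 kb (56305601 to 56367600, signal 6.03). The shortest such maximum was that of chromosome 10, 61.4 kb from 60017001 to 60078400, with a signal of 3.37.

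Autosomes rich in genes were richer in wide regions. The number of wide regions per autosome went with the number of protein-coding genes in the GRCm38 annotation (rank correlation 0.79, r 0.84). Larger chromosomes have more of both, and the rank correlation with listed span alone was 0.50. Per Mb, the rank correlation was 0.74 and r was 0.75, and without the densest chromosomes 11 and 19 they were 0.65 and 0.58. Chromosome 7 stood out from this order, with the highest number of coding genes per Mb, 14.2, and a wide region density of 0.930. Chromosome 12 had the lowest number, 5.51 per Mb, and a density of 0.695. These relations describe 19 chromosomes of 1 genome and carry no test.

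On the X chromosome, which the choice of members left out, 11 of 483 regions reached 20 kb (2.28%, exact interval 1.14 to 4.04). Their signals ran from 5.09 to 10.3 with a median of 5.79, and the longest measured 57.2 kb. A cluster of 9 of the 11 lay within 4.57 Mb, from 96326001 to 100900400, of a listed span of 161.7 Mb. These X regions, too, were picked after their values were seen.

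The replicates' own lists, which are narrow and on mm10, were compared with the wide regions by counts per chromosome. Peaks of a replicate were joined over gaps of up to 3 kb, and joined domains of 20 kb or longer on the autosomes were counted. The mm9 list had 1744 regions of that length, against 529 domains in replicate 1, 677 in replicate 2 and 378 in bases common to both. The order of the chromosomes was alike in each. The rank correlation between the mm9 count per autosome and the domain count was 0.95 for replicate 1, 0.91 for replicate 2 and 0.91 for common bases, and that between the replicates was 0.94. Per Mb the values were 0.95, 0.93 and 0.91. The mm9 list belongs to the same series, so the lists are not shown to be independent of each other. Chromosome 11 had 172 wide regions on mm9 with 51, 64 and 37 domains for replicate 1, replicate 2 and common bases, and chromosome 16 had 41 with 8, 19 and 6.

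The longest length on each autosome was less alike between the lists. Over 19 autosomes the lengths of the longest mm9 region and the longest mm10 domain of common bases had a rank correlation of 0.64 and an r of 0.84. The listed starts of the 2, each on its own build, were far apart on several autosomes. Whether the 2 are the same stretch was not tested. On chromosome 9 the mm9 region began at 46700601 and the mm10 domain at 91350266, and on chromosome 8 the starts were 87225001 and 4180463. On chromosomes 15, 11, 6 and 2 the mm9 values were 264.0, 145.0, 137.2 and 123.0 kb, and the mm10 values were 172.0, 137.7, 134.7 and 127.4 kb. In each case the mm10 domain was one that holds HOX gene starts, of Hoxc, Hoxb, Hoxa and Hoxd. On chromosome 2 the mm9 list held 2 regions of about that length. The one of 123.0 kb began at 164965001 and the one of 120 kb at 74491801, and the mm10 domain began at 74643440. By listed starts alone, the region of 120 kb was the closer of the 2 to the Hoxd domain. No position was carried between builds, so whether the region of 120 kb is the same stretch was not tested. Chromosome 7 had a longest mm9 region of 207.2 kb and a longest mm10 domain of 112.1 kb. The rest of the autosomes had longest mm9 regions of 61.4 to 109.2 kb and longest mm10 domains of 41.1 to 79.4 kb.

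**Figure D4:**
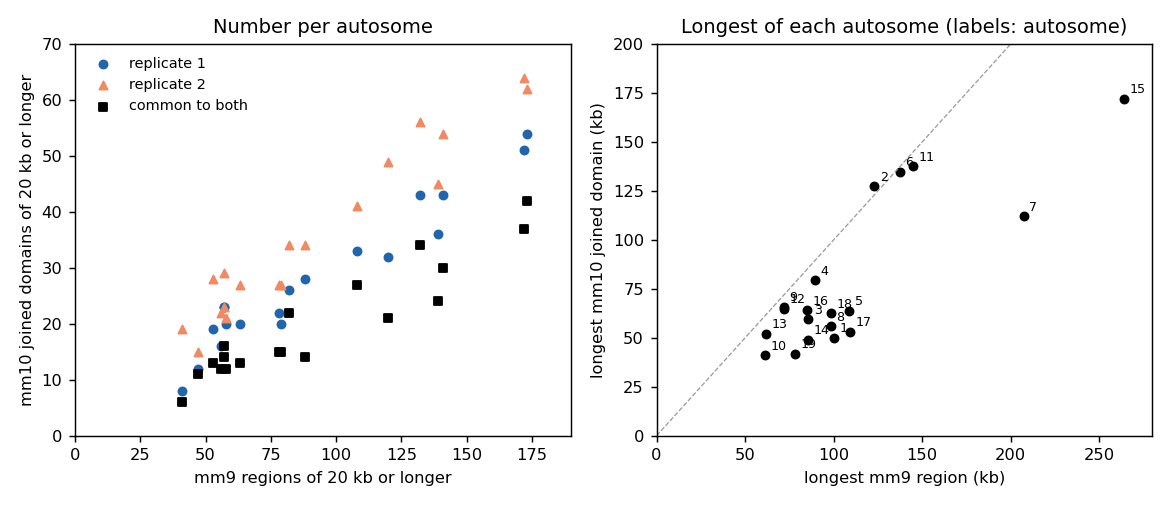
Left, mm10 joined domains of 20 kb or longer against mm9 regions of 20 kb or longer, 1 point per autosome for replicate 1 (circles), replicate 2 (triangles) and bases common to both (squares). Right, longest mm10 domain of common bases against longest mm9 region in kb, with the autosome beside each point and equality as a dashed line, below which 18 of the 19 points lie. The domain and the region of a point need not be the same stretch.

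Named on mm10 alone, the coding genes that start in the longest common domain of each autosome included developmental regulators other than HOX genes. Pax3, which acts in neural crest and muscle precursors, was on chromosome 1, Pax2, which acts in kidney and ear, on chromosome 19, and Six3, which acts in forebrain and eye, on chromosome 17. Nkx1-1, a homeobox gene, was on chromosome 5, the nuclear receptor gene Nr2f1 on chromosome 13 and Tbx1, a T-box gene of heart and pharynx, on chromosome 16 with 3 other starts. Zic1 and Zic4, zinc finger genes of the cerebellum, were on chromosome 9, and 11 clustered protocadherin genes of the gamma group on chromosome 18. Other starts were those of Ddit4, a stress response gene, on chromosome 10 and Cdkn1c, an imprinted brake on cell division, on chromosome 7. Crabp2, Nes and Bcan started in that of chromosome 3, Prr36 and Lrrc8e in that of chromosome 8, and Lbhd2, Exoc3l4 and Tnfaip2 in that of chromosome 12. That of chromosome 4 held starts of Kncn, 6430628N08Rik and Dmbx1, and that of chromosome 14 held Zfp503 and Lrmda. These genes were named after the domains were seen. The domains are not shown to be the mm9 regions of the same chromosomes. On chromosomes 2, 5, 8, 9, 13, 14, 16 and 19 the listed starts of the 2, each on its own build, lie far apart. They differ less on chromosome 1, at 74913401 on mm9 and 78170840 on mm10, and on chromosome 7, at 150484001 and 143357175.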

How the data were processed

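H3K27me3 chromatin of the line E14TG2a.4 was sequenced in 2 biological replicates, taken here as 1 group. The deposited series-wide list on mm9 is in broad-peak layout, per the file headers, and gives a signal value for each region in a scaling that the sources do not state. Its p-values are linear, as deposited by the authors, and a listed 0 is too small for the file. The sources used here do not give the caller, thresholds, control and libraries behind it. The mm10 lists of each replicate and of both together are narrow lists from pseudoreplicated or relaxed calls, per the file headers.

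Wide regions were autosomal mm9 regions of at least 20 kb. Gaps are edge to edge, and flanks are 50 kb on each side. Exact binomial or Poisson 95% intervals cover counting error only. On mm10, peaks were joined within 3 kb, and counts were compared per autosome with no position carried between builds. Coding genes came from GENCODE M21. No test was run, because the length rule, signal and p come from 1 call. The scripts were tested on simulated regions. Regions were read with pandas 2.3.3 and NumPy 2.4.6 under Python 3.11.15. Intervals came from SciPy 1.17.1, and figures were drawn with Matplotlib 3.10.9.

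Regions were named by rule: the 10 longest, the 10 strongest, the longest of each autosome, the first 5 on each side of the limit and the 3 most populous groups. Members, lists and this rule were chosen with earlier results of these data known. Others named were picked afterwards.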

Additional observations from a re-analysis of the deposited data

How the results depend on the processing

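Of 60 alternative values for 9 results, 43 moved beyond the interval or rounding of the value reported, 17 stayed within it and 0 changed sign. Only the rank correlations could change sign, and a changed length limit must move the number of regions and their share of bases. The tally is therefore a description only. With a limit of 10 kb there were 6958 regions with 42.24% of the autosomal listed bases, a median length of 14.20 kb, a median signal of 2.975 and a Spearman rank correlation of length and signal of 0.3636. Of these regions 79.84% had another within 100 kb, the density ratio between autosomes was 3.292 and the rank correlation with coding genes was 0.8842. With 30 kb there were 620 regions with 9.438% of bases, a median length of 38.80 kb, a median signal of 4.298 and a rank correlation of 0.1960. Another lay near 36.61% of them, and the rank correlation was 0.8083 with mm10 domains and 0.6957 with coding genes. Joined within 3 kb, the list gave 3859 regions, 47.60% of bases, 30.80 kb, a signal of 2.890, a rank correlation of 0.2860 and 70.51% near another, with rank correlations of 0.8743 for mm10 domains and 0.8772 for coding genes. Joined within 1 kb, an alternative chosen after seeing the data, it gave 2670 regions, 30.10%, 28.20 kb, 3.272, 0.2749, 63.18% and 0.8472 for the same measures without mm10. All 10 longest regions lengthened at 3 kb, and 9 of them at 1 kb. With the X chromosome included the share of bases was 18.48%, the rank correlation of length and signal 0.2728, the density ratio 21.31 and the rank correlation with coding genes 0.7552. The lowest density in that ratio is that of the X chromosome, with 11 wide regions over a listed span of 161.7 Mb. Keeping the upper 50% of the list by signal gave 28.76% of bases and a rank correlation of 0.2505. Another wide region lay within 50 kb of 41.23% and within 500 kb of 85.03%. The rank correlation with mm10 domains was 0.7760 after joining within 1 kb, 0.9552 with relaxed lists, 0.9526 with both libraries together, and 0.9112 to 0.9459 when either replicate was left out. The cause of these shifts was not tested beyond the changed rule itself.

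No paired analysis was possible because the series has 1 group. Genes inside wide regions were not analysed here, so the planned count of them was not run. The mm9 list gives no value per replicate and no read depth, so the error of a single region's length or signal is unknown.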

Other observations

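When regions up to 3 kb apart were joined, the longest stretch still held the longest deposited region, on chromosome 15, and measured 303.8 kb from 6 listed regions. Next in length was 301.4 kb on chromosome 18, assembled from 15 listed regions, followed by 296.8 kb on chromosome 11, 280.6 kb on chromosome 5 and 229.4 kb on chromosome 8. The longest deposited region inside the stretch measured 94.6 kb on chromosome 18 and 64.8 kb on chromosome 8, and the stretch on chromosome 11 held the one of 145 kb. These stretches were picked after their values were seen.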
